A study of Homo sapiens with 4 samples.

Results

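Integrins, tensins and the proteins of focal adhesions were followed as 37 genes in UM-UC-3 cells, a widely used culture line from a human bladder cancer. The members were chosen by gene symbol: 17 integrin chain genes and 20 genes for adhesion proteins, of 19775 genes named on the array. Only probe sets annotated to a single gene were used, and of a gene's several the one with the highest 4-array mean stood for it. Of the 37, 36 had such a probe set and 29 were tested. ITGB6 was named only by probe sets that also carry a second gene, and 7 others lay under the filter on low values.

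The cells that received RhoGDI2 had been stably transfected with the protein fused to GFP and sorted by fluorescence for the fusion. The control cells were transfected with GFP alone together with pBABE PURO, a plasmid for drug selection, and sorted for GFP. Each group had 2 arrays (Affymetrix HG-U133 Plus 2.0), A and B, which the labels call biological replicates and pair across the groups by time of preparation, all from cells in log phase growth. RhoGDI2 is the product of ARHGDIB, which the series title names a metastasis suppressor. The sources used here do not say if the replicates stem from independent transfections, so what arose when each line was made and the effect of the introduced gene cannot be told apart.

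Integrins are receptors built from an alpha and a beta chain that bind matrix or other cells outside and link to actin inside. Talins and kindlins bind the beta chain tail and activate the receptor, vinculin and tensins join it to actin, and the complex of ILK, PINCH and parvin, the kinases FAK and Src and the adaptors paxillin and p130Cas carry its signals. In bladder epithelium integrins anchor cells to the basement membrane, and altered integrin use is a known feature of invasive carcinoma.

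The label was checked first. ARHGDIB read 11.94 and 11.58 on the GFP-RhoGDI2 arrays and 6.51 and 6.27 on the GFP arrays (log2 RMA expression, the scale of all levels here), by its probe set of highest mean. Its 2 other tested probe sets had differences of 0.94 (adjusted p = 0.00794 in limma) and -0.02 (adjusted p = 0.953), the second with overlapping arrays. Arrays of 1 group correlated at 0.996 for both groups and arrays of different groups at 0.991 to 0.992 over all probe sets, a description since probe sets are not replicates. Of 14 urothelial and epithelial markers 9 lay under the filter level of 4.64, EPCAM, CDH1, KRT20, UPK2 and KRT5 among them. The mesenchymal marker VIM read 14.00 and 13.91 in GFP-RhoGDI2 cells and 13.85 and 13.71 in GFP cells. KRT18, KRT8 and KRT7 on the urothelial and epithelial list, keratins of simple epithelia and urothelium, were well above the filter level. Their 4-array means were 13.31, 9.07 and 6.12.

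Of the 29 tested members, 4 were called, 13.8% of them. TNS3, ITGA4 and PARVB were higher and ITGA2 was lower in GFP-RhoGDI2 cells. TNS3, which encodes the adhesion adaptor tensin-3, rose 6.20-fold. ITGA4, the alpha chain of a fibronectin and VCAM1 receptor, rose 1.83-fold, and PARVB, which encodes the ILK partner beta-parvin, rose 1.43-fold. ITGA2, the alpha chain of a collagen receptor, fell to 7.16 ± 0.23 in GFP-RhoGDI2 cells, against 7.97 ± 0.05 in GFP cells (SD, n = 2 each), a log2 difference of -0.81.

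The test was limma with preparation as a block, and a call is a Benjamini-Hochberg adjusted p under 0.05 over all probe sets tested. Across the array 8.17% of tested genes were called, 4.83% higher and 3.35% lower, and the 3 higher and 1 lower of 29 members are to be read against those shares. The members were chosen with earlier results of these data known, so their counts and shares are a description only. Without the block 3 members were called, where the share of all genes was 5.29%. PARVB was the member lost (adjusted p = 0.0543). The members had a median log2 difference of 0.19 (0.12 in preparation A and 0.25 in preparation B), and all tested genes a median of -0.01. Of the 29, 19 had a positive difference, 65.5%, against 47.4% of all tested genes. In 16 members both GFP-RhoGDI2 arrays read above both GFP arrays and in 5 below, while 25.6% and 29.0% of all genes separated in those directions.

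**Figure D1:**
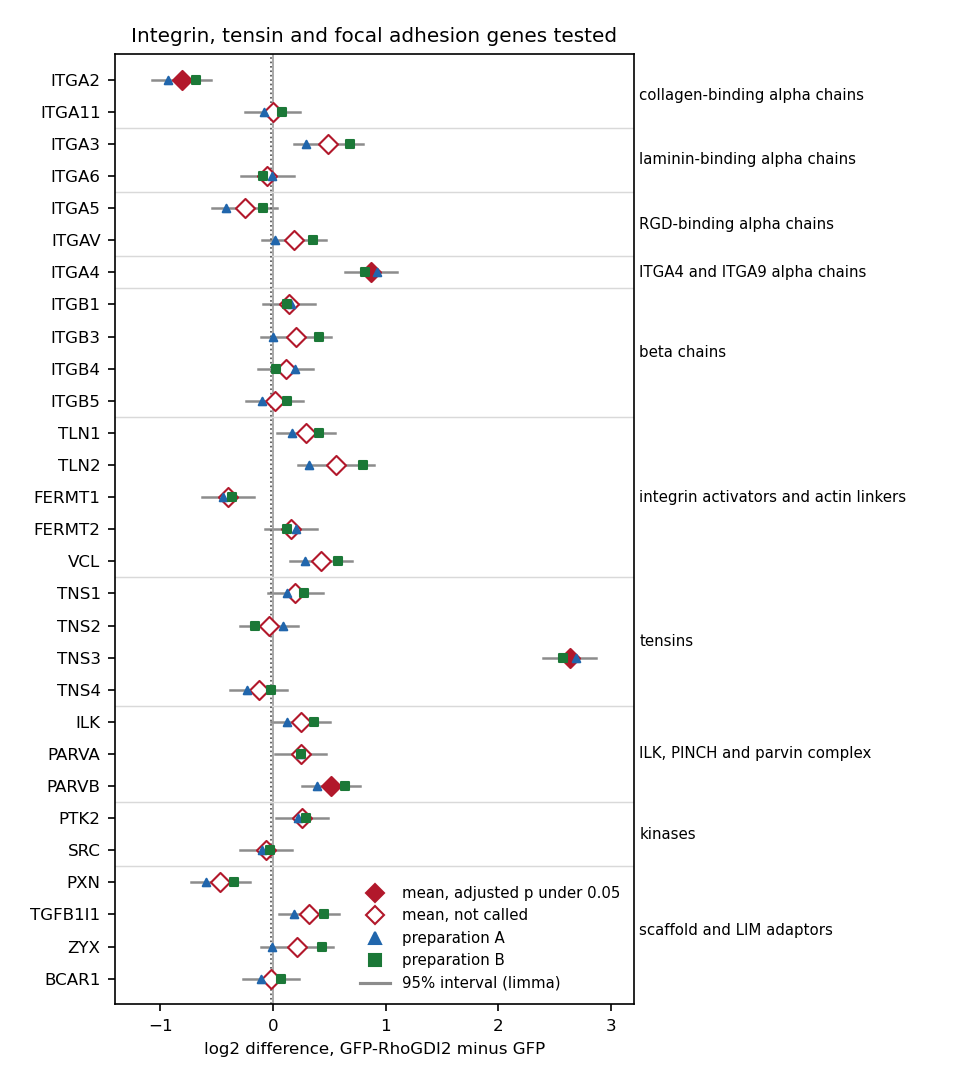
Log2 difference (GFP-RhoGDI2 minus GFP, x axis) of the 29 tested members, grouped by role, with diamonds for the mean of both preparations (filled where the adjusted p was under 0.05), triangles and squares for preparations A and B, and bars for the 95% interval. The dotted line marks the median of all tested genes at -0.01, and TNS3 at 2.63 lies apart from the other members, which run from -0.81 to 0.87.

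The sequences upstream of 3 called members and of VCAM1, a ligand gene described further on, are shown because they are the tensin and the integrin chains that were called, with the cell surface ligand of ITGA4. Each run is the 250 bases before an annotated start on the gene's strand, from RefSeq on GRCh38.p14. Capitals mark every match, on either strand, to the GC box GGGCGG, the AP-1 motif TGANTCA, the TEAD motif GGAATG, the NF-kappaB consensus or the CArG box of SRF, and overlapping matches run together. TNS3 has 3 annotated starts, and the window shown (chr7:47582112-47582361, minus strand) is the only one of them with a match. ITGA4 lies at chr2:181457136-181457385, VCAM1 at chr1:100719492-100719741 and ITGA2 at chr5:52989102-52989351, all on the plus strand.
TNS3: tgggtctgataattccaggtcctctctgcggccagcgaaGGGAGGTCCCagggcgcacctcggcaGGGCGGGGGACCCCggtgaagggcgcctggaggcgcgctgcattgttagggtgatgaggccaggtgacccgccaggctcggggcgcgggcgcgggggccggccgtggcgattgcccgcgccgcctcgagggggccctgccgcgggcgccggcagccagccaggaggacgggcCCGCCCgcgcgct
ITGA4: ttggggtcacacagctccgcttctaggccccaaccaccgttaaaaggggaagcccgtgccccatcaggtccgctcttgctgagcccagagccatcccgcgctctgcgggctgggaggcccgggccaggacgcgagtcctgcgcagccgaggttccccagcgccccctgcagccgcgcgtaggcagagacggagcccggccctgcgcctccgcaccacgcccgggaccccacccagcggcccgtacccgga
VCAM1: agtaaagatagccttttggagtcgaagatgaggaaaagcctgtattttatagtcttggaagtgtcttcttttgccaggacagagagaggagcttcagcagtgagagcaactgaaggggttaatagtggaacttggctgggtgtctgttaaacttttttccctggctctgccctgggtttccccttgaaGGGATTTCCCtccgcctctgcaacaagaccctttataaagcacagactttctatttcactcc
ITGA2: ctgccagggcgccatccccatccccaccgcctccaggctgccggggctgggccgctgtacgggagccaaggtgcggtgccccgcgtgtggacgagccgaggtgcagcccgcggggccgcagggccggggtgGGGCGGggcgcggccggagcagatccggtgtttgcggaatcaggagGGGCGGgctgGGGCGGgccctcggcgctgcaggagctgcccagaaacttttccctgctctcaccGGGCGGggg

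The TNS3 window holds 2 GC boxes and 2 matches to the NF-kappaB consensus, and the VCAM1 window holds 1 NF-kappaB match. The ITGA2 window holds 4 GC boxes and no other motif, and the ITGA4 window holds no match. PARVB has 2 annotated starts, of which one window has 4 GC boxes and the other 1 NF-kappaB match. Over all 35116 windows of this length 42.6% hold a GC box, 6.57% an AP-1 motif, 11.9% a TEAD motif, 6.88% the NF-kappaB consensus and 1.16% a CArG box. For 27 of the 37 members windows were found, 53 in all, and 52.8%, 3.77%, 13.2%, 18.9% and 3.77% of them hold these motifs in the same order. A match describes letters in a window and not a site in use, and windows of 1 gene can overlap.

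Among the alpha chains that bind collagen, ITGA2 read 7.00 and 7.32 in GFP-RhoGDI2 cells of preparations A and B and 7.93 and 8.01 in GFP cells. The GFP-RhoGDI2 arrays were lower in both preparations and the groups did not overlap. The log2 difference was -0.81 (SE 0.106, 95% interval -1.07 to -0.55, adjusted p = 0.0147 in limma). The other ITGA2 probe set read 6.42 and 6.88 in GFP-RhoGDI2 cells, against 7.22 and 7.27 in GFP cells, and was called with the block (difference -0.59, adjusted p = 0.0483) but not without it (adjusted p = 0.0917). The ITGA2 call did not hold when GFP B was left out (-0.77, adjusted p = 0.0581) or GFP-RhoGDI2 A (-0.65, adjusted p = 0.0958), both fitted in limma without the block. ITGA11, another collagen-binding chain, had a difference of -0.0026 (95% interval -0.24 to 0.24). ITGA1 and ITGA10 lay under the filter, at means of 3.61 and 4.09 over the 4 arrays.

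ITGA4 pairs with the beta1 or beta7 chain and binds VCAM1 and fibronectin, and is best known from leukocytes. It read 6.29 and 6.44 in GFP-RhoGDI2 cells and 5.37 and 5.62 in GFP cells. Both GFP-RhoGDI2 arrays were above both GFP arrays. The log2 difference was 0.87 (SE 0.0941, 95% interval 0.64 to 1.10, adjusted p = 0.00846 in limma). A second tested probe set differed by 0.77 (adjusted p = 0.0137), and the 2 under the filter by 1.21 and 1.18, so all 4 probe sets were higher in GFP-RhoGDI2 cells. The call was lost when GFP-RhoGDI2 A (0.95, adjusted p = 0.052) or GFP-RhoGDI2 B (0.79, adjusted p = 0.0927) was left out, each in limma without the block. The related chain gene ITGA9 lay under the filter, at a mean of 3.84.

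Leukocyte markers were low in both groups. PTPRC, which encodes CD45, read 3.59 and 3.19 in GFP-RhoGDI2 cells and 3.23 and 3.09 in GFP cells. The mean log2 level over 5 leukocyte markers was 3.91 and 3.71 in GFP-RhoGDI2 cells and 3.77 and 3.80 in GFP cells, with 4 of the 5 under the filter. Of 9 further integrin genes, mainly of leukocytes and platelets, 5 were tested and 0 were called in limma, with 0 at an unadjusted p under 0.05. Not all of them were low. ITGAE read 10.56 and 10.40 in GFP-RhoGDI2 cells and 10.77 and 10.57 in GFP cells (difference -0.19, adjusted p = 0.256 in limma). ITGB7, the other partner chain of ITGA4, read 5.26 and 5.15 in GFP-RhoGDI2 cells and 5.30 and 5.26 in GFP cells.

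The laminin-binding chain gene ITGA3 read 8.58 and 8.63 in GFP-RhoGDI2 cells and 8.29 and 7.94 in GFP cells. The groups did not overlap, but the difference of 0.49 (SE 0.123, 95% interval 0.19 to 0.80) missed the threshold (adjusted p = 0.0717 in limma). ITGA6, another laminin-binding chain, differed by -0.05 (95% interval -0.28 to 0.18), and ITGA7 lay under the filter at a mean of 4.22. The fibronectin receptor chain gene ITGA5 differed by -0.25 (95% interval -0.54 to 0.03, adjusted p = 0.231 in limma) and ITGAV, which serves receptors for vitronectin and latent TGF-beta, by 0.19 (95% interval -0.10 to 0.47).

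No beta chain gene was called by a probe set that passed the filter. ITGB1, the partner of most alpha chains named here, read 13.27 and 13.36 in GFP-RhoGDI2 cells and 13.11 and 13.23 in GFP cells. Its difference of 0.14 had an SE of 0.092 and a 95% interval of -0.09 to 0.37 (adjusted p = 0.384 in limma), and its 2 other tested probe sets differed by 0.17 and 0.25. ITGB3, ITGB4 and ITGB5 differed by 0.20, 0.11 and 0.01, and ITGB8 lay under the filter at a mean of 3.47. The other tested ITGB5 probe sets differed by 0.15 and -0.18. One ITGB3 probe set under the filter read 4.49 and 5.19 in GFP-RhoGDI2 cells and 3.50 and 4.24 in GFP cells. Its difference was 0.99 in preparation A and 0.95 in preparation B, while the 3 tested ITGB3 probe sets differed by 0.09 to 0.23. In limma with no filter this probe set had an adjusted p of 0.00622 (difference 0.97, SE 0.108).

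**Figure D2:**
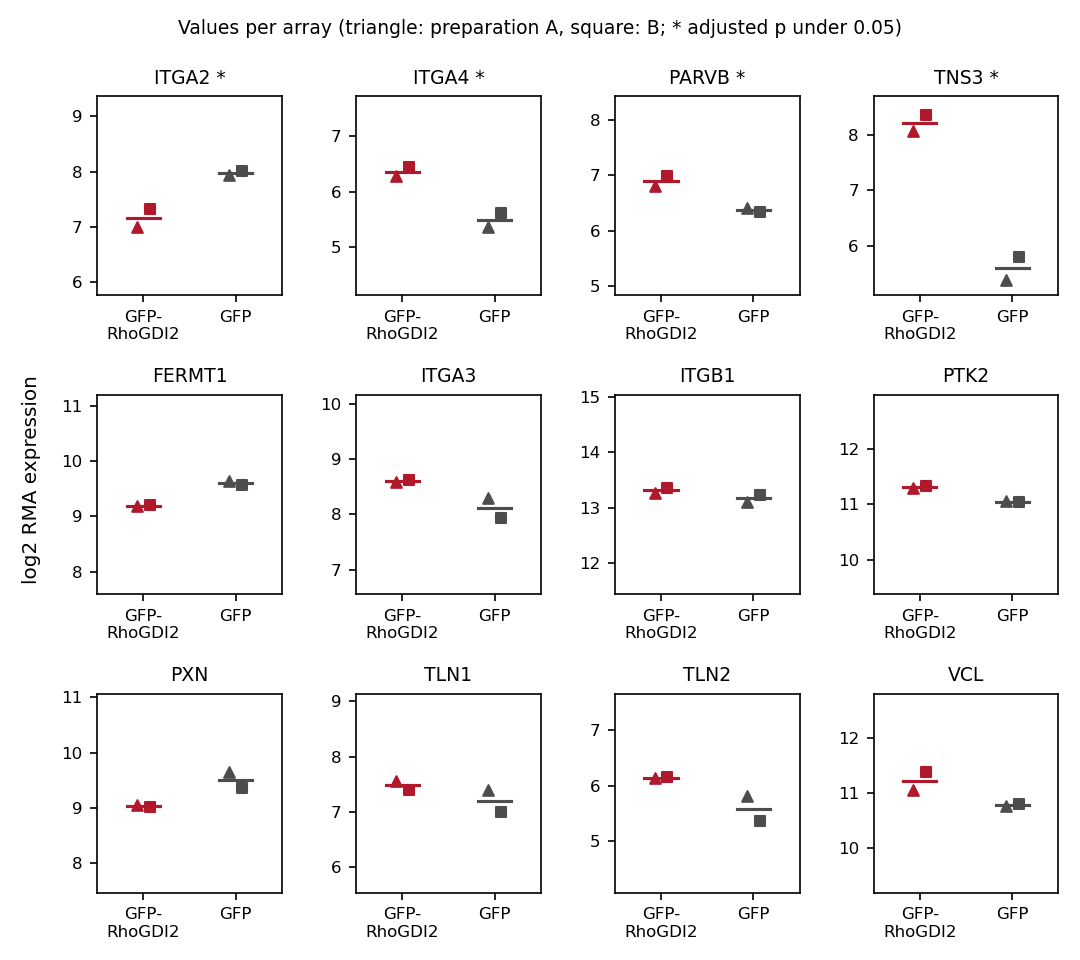
Log2 RMA expression (y axis) on each array for the 4 called members (top row, starred) and 8 others, GFP-RhoGDI2 left of GFP, with triangles for preparation A, squares for preparation B and bars for the mean of 2 arrays. Each panel spans the same range on the log2 scale. The arrays of the groups do not overlap in any panel, with the widest gap in TNS3. The gap is narrow in TLN1 (7.40 against 7.39) and ITGB1 (13.27 against 13.23). Panels other than ITGB1, PTK2 and TLN1 were picked for a call or a difference of at least 0.4, so their separation is no test. Of all tested genes 25.6% separated higher and 29.0% lower.

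Tensins are adaptors that bind actin and the tails of beta chains. TNS3 read 8.08 and 8.37 in GFP-RhoGDI2 cells, against 5.39 and 5.80 in GFP cells. Both GFP-RhoGDI2 arrays were far above both GFP arrays, and the preparations gave differences of 2.69 and 2.57. The log2 difference was 2.63 (SE 0.0952, 95% interval 2.40 to 2.87, adjusted p = 2.60e-04 in limma), the 28th of 12123 tested genes by size and the 25th among those higher. The call held with each array left out, with differences of 2.43 to 2.84. Only this TNS3 probe set was tested. The other read 3.43 and 3.53 in GFP-RhoGDI2 cells and 3.78 and 3.45 in GFP cells, under the filter, and with both averaged the difference was 1.25.

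The other tensin genes were not called. TNS1, TNS2 and TNS4 had log2 differences of 0.20 (95% interval -0.04 to 0.44), -0.04 (-0.30 to 0.23) and -0.13 (-0.38 to 0.13). The other tested TNS1 probe set differed by -0.13, with overlapping arrays. TNS4, which encodes a short tensin without the actin-binding part, read 5.47 and 5.39 in GFP-RhoGDI2 cells and 5.70 and 5.41 in GFP cells.

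Talin and vinculin genes were higher in GFP-RhoGDI2 cells without passing the threshold by their main probe sets. TLN1, the widely expressed talin, read 7.57 and 7.40 in GFP-RhoGDI2 cells and 7.39 and 6.99 in GFP cells (difference 0.29, SE 0.104, 95% interval 0.03 to 0.55, adjusted p = 0.152 in limma). A second TLN1 probe set read 6.02 and 5.69 in GFP-RhoGDI2 cells and 5.09 and 4.96 in GFP cells, and was called (0.83, adjusted p = 0.012). The remaining tested TLN1 probe set differed by 0.16 (-0.06 in preparation A and 0.39 in preparation B), with overlapping arrays (adjusted p = 0.48 in limma). TLN2, the talin of muscle and brain, read 6.14 and 6.15 in GFP-RhoGDI2 cells and 5.82 and 5.35 in GFP cells. The TLN2 difference of 0.56 (SE 0.136, 95% interval 0.22 to 0.90) missed the threshold (adjusted p = 0.0672), and a second TLN2 probe set was called (1.01, adjusted p = 0.034). VCL, which encodes vinculin, read 11.05 and 11.38 in GFP-RhoGDI2 cells and 10.77 and 10.80 in GFP cells, a difference of 0.43 (SE 0.111, 95% interval 0.15 to 0.70, adjusted p = 0.0765).

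The kindlin genes had differences of opposite sign. FERMT1, the kindlin of epithelia, read 9.19 and 9.20 in GFP-RhoGDI2 cells and 9.63 and 9.56 in GFP cells. The arrays of the groups did not overlap, and the difference of -0.40 (SE 0.0932, 95% interval -0.63 to -0.17) missed the threshold (adjusted p = 0.0604 in limma). Its other tested probe sets differed by -0.44 and -0.51 and were called (adjusted p = 0.0495 and 0.0394), the first of them not without the block (adjusted p = 0.064). FERMT2, the kindlin of mesenchymal and muscle cells, differed by 0.16 (95% interval -0.07 to 0.39, adjusted p = 0.326), and its 2 other probe sets by 0.35 and 0.32 (adjusted p = 0.103 and 0.0974). Whether the kindlins differ from each other was not tested.

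ILK binds a PINCH protein and a parvin, and the 3 stabilise each other. PARVB read 6.80 and 6.98 in GFP-RhoGDI2 cells and 6.41 and 6.35 in GFP cells. The groups did not overlap, and the difference was 0.51 (SE 0.105, 95% interval 0.25 to 0.78, adjusted p = 0.0451 in limma). All 5 tested PARVB probe sets were higher, by 0.38 to 0.83, and 4 of them were called, of which the main one and one other (adjusted p = 0.063) were lost without the block. The call on the main probe set was lost with any of the 4 arrays left out (0.42 to 0.61, lowest adjusted p = 0.106), with quantile normalization (adjusted p = 0.0585) and with no filter (adjusted p = 0.0796). Of the 20 tested genes nearest to PARVB in the RefSeq order of chromosome 22, 6 were called, all higher (0.50 to 0.63), with a median difference of 0.19, where 8.17% of all tested genes were called. Those 6 are ARFGAP3, TSPO, SHISAL1, RTL6, KIAA0930 and ATXN10, and the part of this stretch in the PARVB difference was not tested. Around TNS3, ITGA4 and ITGA2 the same count gave 2, 4 and 2 called genes of 20, with median differences of 0.05, 0.01 and -0.11. Of these called genes 1 was higher and 1 lower around TNS3, and 1 higher and 3 lower around ITGA4. Around ITGA2 both were lower, NNT-AS1 and ESM1 (-2.00 to -0.56), and the part of that stretch in the ITGA2 difference was not tested.

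The other genes of this complex were not called by their main probe sets. PARVA, the widely expressed parvin, differed by 0.25 (95% interval 0.02 to 0.47, adjusted p = 0.163 in limma). Of its 6 tested probe sets 5 were higher and 1 was lower (-0.26), and 1 was called (0.53, adjusted p = 0.0331). ILK differed by 0.24 (95% interval -0.02 to 0.50), and LIMS1, the PINCH gene, lay under the filter in the probe sets annotated to it alone, at a mean of 3.53.

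**Figure D3:**
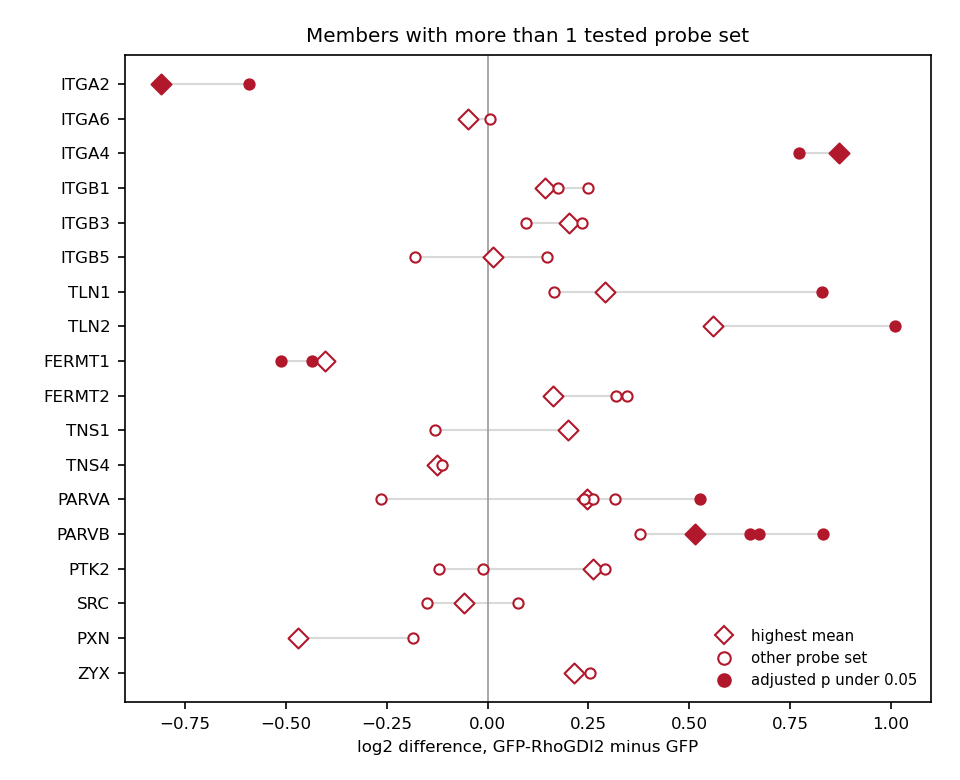
Log2 difference (GFP-RhoGDI2 minus GFP, x axis) of every tested probe set for the 18 members with more than 1, with diamonds for the probe set of highest mean and filled symbols for an adjusted p under 0.05. In 12 of the 18 all tested probe sets lie on 1 side of 0, PARVB, FERMT1, ITGA2 and ITGA4 among them.

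Over all members 63 probe sets were tested and 14 were called, 10 higher and 4 lower, where 7.64% of all tested probe sets were called. Probe sets of 1 gene share its RNA and are not independent. In 4 members (TLN1, TLN2, FERMT1 and PARVA) a probe set other than the main one was called while the main one was not.

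Among the kinases and adaptors, PTK2, which encodes the focal adhesion kinase FAK, read 11.29 and 11.33 in GFP-RhoGDI2 cells and 11.06 and 11.03 in GFP cells. Its difference of 0.26 (0.23 and 0.30 in preparations A and B, SE 0.0929, 95% interval 0.03 to 0.49) was positive in both preparations and missed the threshold (adjusted p = 0.149 in limma). The other tested PTK2 probe sets differed by 0.29, -0.01 and -0.12 and were not called, so the sign depended on the probe set. SRC differed by -0.06 (95% interval -0.29 to 0.17). PXN, which encodes the scaffold paxillin, read 9.05 and 9.01 in GFP-RhoGDI2 cells and 9.65 and 9.36 in GFP cells. Both GFP-RhoGDI2 arrays were lower, and the difference of -0.47 (SE 0.106, 95% interval -0.73 to -0.21) missed the threshold (adjusted p = 0.0568). Its second probe set differed by -0.19.

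TGFB1I1, the paxillin relative Hic-5, differed by 0.32 (95% interval 0.05 to 0.58, adjusted p = 0.135 in limma). ZYX, which encodes the LIM protein zyxin, differed by 0.21 (-0.11 to 0.53), and BCAR1, which encodes p130Cas, by -0.02 (-0.26 to 0.23). NEDD9, the relative of BCAR1, lay under the filter at a mean of 4.56. At an unadjusted p under 0.05 stood 13 of the 29 members, among 3290 of all 12123 genes.

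Further adhesion genes were taken from a list of partners, regulators and signalling proteins, of which 69 of 85 were tested. In this list 9 were called higher and 1 lower, 14.5% of those tested. Across all tested genes 8.17% were called, 4.83% higher and 3.35% lower. The list was chosen with earlier results of these data known, so its count and share are a description only. The median difference was 0.08, against -0.01 over all tested genes. KANK1, whose product binds talin at the rim of adhesions, read 7.39 and 7.84 in GFP-RhoGDI2 cells and 6.15 and 6.35 in GFP cells (difference 1.36, adjusted p = 0.00301 in limma). FYN, a Src family kinase, read 7.47 and 7.44 in GFP-RhoGDI2 cells and 6.27 and 6.34 in GFP cells (1.15, adjusted p = 0.00337). CAV1, CAV2, CD47, a receptor that associates with integrins, and RSU1, which binds PINCH, rose by 0.82, 0.62, 0.63 and 0.65, though RSU1 was lost without the block (adjusted p = 0.0929). PALLD, an actin crosslinker, rose by 0.58. RAB21, which traffics integrins from endosomes, fell by 0.52 on the log2 scale.

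Of 44 genes for integrin ligands 27 were tested, and 6 were called higher and 0 lower, 22.2% of those tested. Across all tested genes 4.83% were called higher and 3.35% lower. Of the 6, VCAM1 and TNC passed the filter only through GFP-RhoGDI2 cells, where they are high, so 4 of the calls were above the filter in both groups and the count and share do not support a statement about the list. Their median difference was 0.21 (0.05 in preparation A and 0.35 in preparation B). VCAM1, the cell surface ligand of ITGA4, read 5.81 and 6.18 in GFP-RhoGDI2 cells and 3.44 and 3.58 in GFP cells. Both arrays of GFP-RhoGDI2 cells were higher by over 2 on the log2 scale (2.48, SE 0.105, adjusted p = 3.55e-04 in limma). In GFP cells VCAM1 was under the filter and may be background, which leaves its fold uncertain. FN1, the gene for fibronectin, which ITGA4 also binds, was not called (0.34, adjusted p = 0.287 in limma). Its difference was -0.02 in preparation A and 0.69 in preparation B, and its arrays overlapped. LTBP1, which holds latent TGF-beta for αV integrins, rose by 1.82, and the matrix genes TNC, COL6A2, TGFBI and COL5A1 by 1.31, 1.01, 0.96 and 0.76. The GFP level of TNC (4.44) was under the filter too, and COL5A1 was lost without the block (adjusted p = 0.0705).

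**Figure D4:**
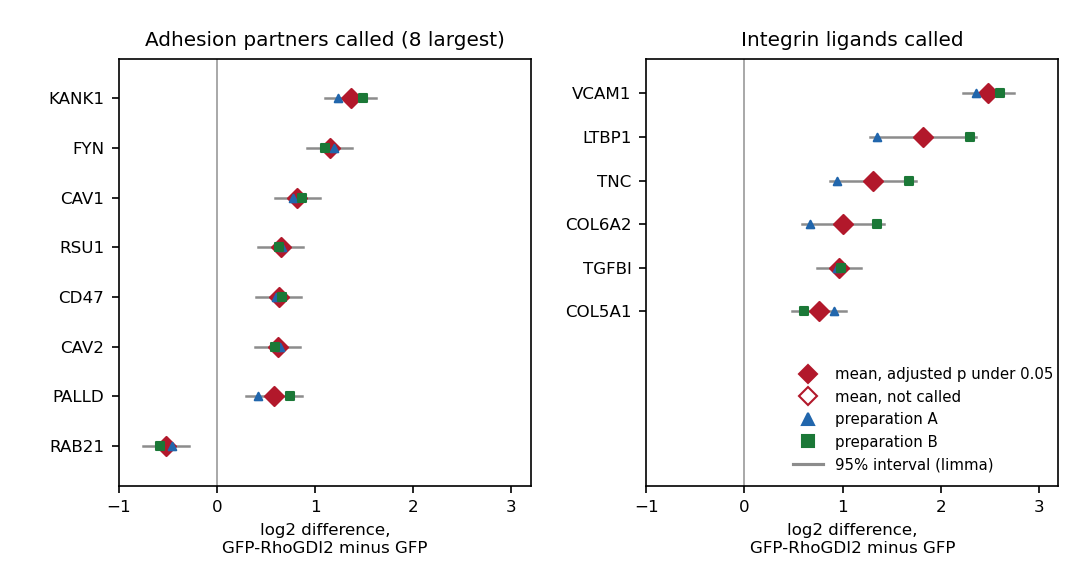
Log2 difference (GFP-RhoGDI2 minus GFP, x axis) of the 8 called adhesion partners with the largest change (left) and the 6 called integrin ligands (right), with diamonds for the mean, triangles and squares for preparations A and B and bars for the 95% interval. KANK1 is at 1.36, and RAB21 is the only gene plotted that is lower; the differences of VCAM1 and TNC are measured against GFP levels under the filter, so their sizes and places in the order are not fixed.

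Of the epithelial and urothelial markers 5 were tested and 3 were called, 2 lower and 1 higher. Of the mesenchymal markers 5 were tested and 2 were called, both higher. Across all tested genes 8.17% were called, 4.83% higher and 3.35% lower, and these small counts are a description only. Under the filter by its mean, UPK1A read 4.95 and 4.55 in GFP-RhoGDI2 cells and 4.18 and 4.03 in GFP cells. KRT5 and EPCAM, also under it, differed by -0.17 and -0.15. KRT8 and KRT18 fell by 1.23 and 0.59 on the log2 scale, SNAI2 and CDH2 rose by 2.03 and 0.68 (adjusted p = 0.00278, 0.0225, 0.00243 and 0.0201 in limma), and PPARG, listed as a urothelial marker, was called higher. PPARG read 5.85 and 5.77 in GFP-RhoGDI2 cells and 4.46 and 4.61 in GFP cells, where it lay under the filter, so its size is uncertain. KRT7, GATA3, VIM, ZEB1 and TWIST1 were not called, with differences of -0.15, -0.20, 0.18, 0.19 and 0.12. The mean level over 6 mesenchymal markers was 7.78 and 7.87 in GFP-RhoGDI2 cells and 7.33 and 7.32 in GFP cells, and that over 14 urothelial and epithelial markers 5.15 and 5.06 in GFP-RhoGDI2 cells and 5.14 and 5.21 in GFP cells. Their part in the integrin and adhesion differences was not tested. Of 5 endothelial and 7 fibroblast and smooth muscle markers 1 and 2 were tested and 0 were called in limma, with 0 and 1 at an unadjusted p under 0.05. The tested endothelial marker differed by -0.07 and the 2 tested fibroblast and smooth muscle markers by -0.13 and 0.26. The other 4 endothelial and 5 fibroblast and smooth muscle markers had means under the filter. Among these, CDH5 and LUM were under it on all 4 arrays. In these bulk samples a change in the share of cells and a change in RNA per cell cannot be told apart.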

How the data were processed

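The authors deposited log2 expression values for each probe set. RMA is named for them in the submitters' processing notes, while program, version and the arrays normalized jointly are not given in the sources used. The medians of the 4 arrays lay between 4.62 and 4.65, and nothing was normalized further. Arrays carry no read depth, so their number limits the precision. The labels' description of the GFP-RhoGDI2 samples repeats the control transfection, and groups were taken from the source name, which title and genotype match.

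After 62 control probe sets were left out, 41091 of 54613 probe sets had 1 gene in the platform annotation, 1801 had several and 11721 were not listed. Probe sets with a 4-array mean at or above the median, 4.64, were tested (27307 probe sets, 12123 genes). Tests used lmFit and eBayes of limma 3.58.1 (R 4.3.3) with preparation as a block, because the labels pair the biological replicates by time of preparation. Over tested probe sets the replicates' deviations from their group means correlated at 0.264 between groups. The fit had 1 residual degree of freedom, to which moderation added 4.71, with Benjamini-Hochberg adjustment over all probe sets and calls under 0.05. It was tested on simulated data.

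Named were members that were called or differed by at least 0.4, the core genes ITGB1, PTK2, TLN1 and VCL, and up to 8 called genes of each further list. FN1 beside VCAM1, and ITGAE, EDIL3 and UPK1A from their lists, were added after values were seen. Members and lists were chosen with earlier results of these data known. The genes around PARVB, the ITGB3 probe set under the filter and the motifs were chosen after values were seen. Promoter sequences came from RefSeq (GRCh38.p14). The alternatives were no block, each array left out, other filters, moderations, normalizations, thresholds and choices of probe set.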

Additional observations from a re-analysis of the deposited data

How the results depend on the processing

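Counts of called genes depended on how variances were moderated, filtered and thresholded, and the count over all genes moved too (991 of 12123 by default). For the members, 4 called by default, the count was 14 with an intensity trend (2879 of all genes), 12 with probe sets averaged per gene (2205), 9 with median centring (1575) and 9 at an adjusted p under 0.10 (1971), 8 with an upper-quartile filter (1876 of 7442) and 2 at an adjusted p under 0.01 (243). It ran from 1 to 4 with 1 array left out: 4 without GFP A (PARVB lost and TLN2 gained, 400 of all genes), 2 without GFP B (421), 1 without GFP-RhoGDI2 A (264) and 2 without GFP-RhoGDI2 B (215). For the partners, 10 by default, the counts under the same settings, with the same all-gene counts, were 27 with an intensity trend, 19 with the mean of probe sets, 18 above the upper quartile, 6 with no filter (695 of 19775) and 6 with a 1.5-fold minimum (631), 4 without shared-transcript probe sets (789 of 9362) and 3 at an adjusted p under 0.01, and from 2 to 4 with 1 array left out. For the ligands, 6 by default, they were 12 with an intensity trend and 2 at an adjusted p under 0.01. The cause of these shifts was not tested, beyond the stricter or looser threshold itself. With no replicate block, in place of the paired fit, 3 members, 7 partners and 5 ligands were called (641 of all genes). The median difference of the members stayed positive in all these fits, from 0.112 with no filter to 0.252 in preparation B alone, and TNS3 was called in each fit that tested it. Fits with 1 array left out had no block, and the lone array of its group was assumed to vary like the other group. With 2 arrays a group and no detection calls, a level near the filter is not shown to be above background.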
